A study of Mus musculus with 12 samples.

Results

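The 10 receptor genes described here were followed in myeloid progenitors across 12 RNA libraries: Kit, Csf3r, Csf2ra, Csf2rb, Csf2rb2, Il3ra, Il6ra, Il6st, Il21r and Ifngr1. They were selected by name from a table of counts for 33924 genes as receptors for stem cell factor, G-CSF, GM-CSF, IL-3 and other cytokines, and all 10 were found in it. The cells were live bone marrow progenitors that lacked lineage markers and Sca1 and carried c-Kit, sorted from femurs and tibias of mice that carried Mx in every group, the Cre transgene under an interferon-inducible promoter that is active beyond blood cells too. Control mice were Mx+ Wt1+/+ and het mice had 1 floxed Wt1 allele (Mx+ Wt1fl/+), which leaves the other allele intact. In the labels the word "chronic" goes with old age and "acute" with young age and neither is explained. They give no age in weeks, list no treatment and do not say whether samples came from separate animals. An age difference therefore cannot be told apart from that condition, and p-values measure the spread between these libraries. Each of the 4 groups (old and young, control and het) had 3 libraries.

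Cytokine receptors let progenitors sense the factors that keep them alive and set which blood cells they make. Most of these chains have no kinase of their own and signal through JAK kinases bound to their tails, which activate STAT transcription factors, whereas Kit is itself a tyrosine kinase. Many work as pairs: an alpha chain that recognises 1 ligand and a chain shared between ligands, such as the common beta chain Csf2rb for GM-CSF and IL-3, Il6st (gp130) for the IL-6 family, or the common gamma chain Il2rg for IL-21. Levels below are CPM, a gene's count scaled to a common library total. The kit reads 1 tag from the 3' end of a transcript, so counts need no correction for gene length.

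Wt1 itself had 1 to 23 counts a library and was too low to test, at 4.59 to 6.80 CPM in young control and 0.601 to 3.92 in young het, 0.0916 to 0.943 in old control and 0.802 to 2.63 in old het. The mean was higher in old het than in old control (1.95 and 0.640 CPM), with overlapping libraries. Since the labels do not place the floxed region, 3' tags may lie outside it and do not check the genotype. Depth ran from 645460 counts in young control 2 to 9645502 in old control 1, where 3 counts stand for 5.10 and 0.275 CPM. Old control 1 held 762 counts of Ly6a, the gene of Sca1, against 0 to 5 in the other 11 libraries, and was the only library with Cd3e and the one with 126 of the 128 counts of Cd8a, both T cell markers, while Cd3g and Cd4 had 0 counts there. Young control 3 lay at 142 on the first principal component of log2 CPM and the others at 44.0 or below, and it carried Xist at 1577 CPM where young controls 1 and 2 carried the Y-linked Ddx3y. Young control 2 was the shallowest and had the highest share of mitochondrial rRNA, 8.22% of counts. The young controls were above the young hets in that share (4.35% to 8.22% against 3.0% to 3.51%) and the old hets held 4.78%, 1.40% and 4.75%. The old controls held 1.70%, 2.38% and 2.13%, each below every young control. The part of these features in the receptor levels was not tested, and results are given below with and without these libraries where they moved.

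Of the 10 receptors, 9 had enough counts to be tested and Csf2rb2 had not. By edgeR's quasi-likelihood test, with p-values adjusted over the 10604 tested genes, 1 of the 9 rose in young het against young control, Il21r, where 0.424% of all tested genes passed in either direction and 0.179% were higher. None of the 9 passed in old het against old control, where 0% of all genes did and 3.58% had an unadjusted p under 0.05, with 0 of the 9 receptors among them. Il21r was also the 1 receptor that was higher in old control than in young control, where 6.98% of all genes passed and 2.79% were higher. No receptor passed between old and young het (0.00943% of all genes) or in the difference between the het effects at the 2 ages (0.0849%). Both comparisons that called Il21r share the young control libraries. In young het against young control 3 of the 9 receptors had groups that did not overlap, all higher in het (Il21r, Csf2ra and Ifngr1), where 9.72% of all tested genes were higher without overlap. The median log2 difference of the 9 receptors was 0.33 there, beside 0.08 over all tested genes.

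**Figure D1:**
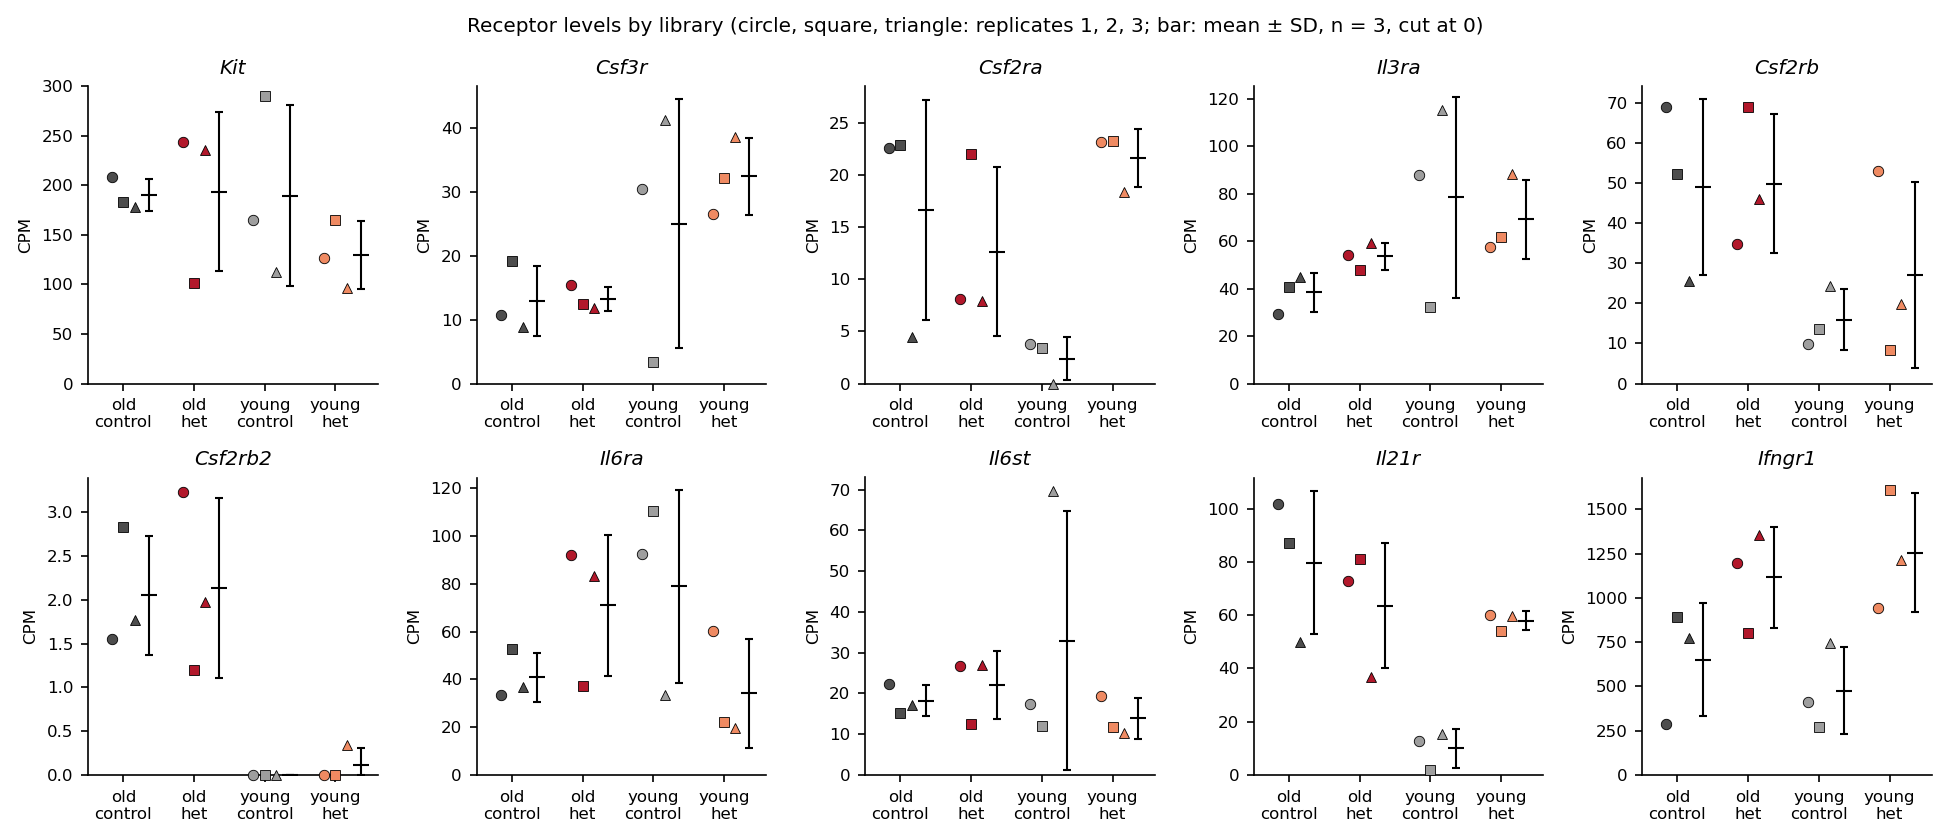
CPM of each of the 10 receptors (vertical axis, linear, from 0) in each library of the 4 groups (horizontal axis), with the mean and SD of 3 libraries as a bar cut at 0. Il21r was at 15.3 CPM or below in the 3 young controls and at 36.8 or above in the other 9 libraries; Csf2rb2 had counts in all 6 old libraries and in 1 of the 6 young ones.

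The sequences before the start sites of Il21r, Csf2ra and Ifngr1 are shown because these were the 3 receptors whose young groups did not overlap. Each is the 250 bases that end just before the start, from RefSeq on build GRCm38.p6, 5′ to 3′ on the gene's strand. These lie at chr7:125603179-125603428 (plus strand) for Il21r, chr19:61228419-61228668 (minus strand) for Csf2ra and chr10:19591699-19591948 (plus strand) for Ifngr1. Capitals mark matches to 3 motifs searched on both strands: GAGGAAG, bound by PU.1 and other ETS factors, the STAT motif TTCNNNGAA, and GCGTGGG, shared by EGR factors and WT1.
Il21r: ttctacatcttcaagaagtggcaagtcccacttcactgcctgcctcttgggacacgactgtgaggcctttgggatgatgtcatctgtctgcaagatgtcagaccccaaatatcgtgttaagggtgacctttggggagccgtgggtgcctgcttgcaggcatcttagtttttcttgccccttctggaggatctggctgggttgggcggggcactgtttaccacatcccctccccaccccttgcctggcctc
Csf2ra: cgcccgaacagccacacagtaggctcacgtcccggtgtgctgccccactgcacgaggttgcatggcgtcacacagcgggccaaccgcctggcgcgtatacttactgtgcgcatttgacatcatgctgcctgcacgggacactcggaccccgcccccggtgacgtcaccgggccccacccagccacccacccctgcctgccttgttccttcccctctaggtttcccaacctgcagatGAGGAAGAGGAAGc
Ifngr1: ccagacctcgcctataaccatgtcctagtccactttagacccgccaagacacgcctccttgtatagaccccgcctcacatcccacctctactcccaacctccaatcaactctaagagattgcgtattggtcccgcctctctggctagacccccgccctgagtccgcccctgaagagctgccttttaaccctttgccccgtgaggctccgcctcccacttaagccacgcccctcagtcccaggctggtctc

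The Csf2ra sequence holds 2 tandem copies of GAGGAAG, starting 14 and 8 bases before the start site and sharing 1 base. Neither Il21r nor Ifngr1 holds any of the 3 motifs in this window. Of the 10 receptors 9 were found in the promoter table, in 10 windows since Kit has 2 start sites 4 bases apart. GAGGAAG was in the windows of Csf2ra, Csf2rb2, Csf3r and Kit, and in 10.6% of all 32851 windows of this length. TTCNNNGAA was in that of Csf2rb2 and in 7.02% of all windows, and GCGTGGG was in none of the 10 receptor windows and in 4.30% of all. A match describes the letters and is not a binding site shown by these data.

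Il21r, the ligand-binding chain for IL-21, was the receptor that passed the test. It was at 12.9, 1.70 and 15.3 CPM in young controls 1 to 3, from 17, 1 and 20 counts. In the young hets it was at 60.1, 53.9 and 59.8 CPM. The old controls stood at 102, 87.2 and 50.0 CPM, and the old hets at 72.8, 81.0 and 36.8. Every young control thus lay below each of the other 9 libraries, and the other 3 groups overlapped one another. From high to low, old control had a mean of 79.7 ± 26.7 CPM, old het 63.5 ± 23.5, young het 58.0 ± 3.52 and young control 9.96 ± 7.26 (SD, n = 3 each).

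The log2 difference of Il21r was 2.42 (SE 0.52, edgeR adjusted p = 0.0477) in young het against young control and 2.88 (SE 0.53, edgeR adjusted p = 0.00293) in old control against young control. In old het against old control it was -0.33 (SE 0.46, edgeR adjusted p = 0.999), with an approximate 95% interval from -1.24 to 0.58. Its het effect differed between old and young by -2.75 (SE 0.70), without passing (edgeR adjusted p = 0.101). This difference passed without young control 3 (-3.07, adjusted p = 0.0439) and also when old het 2 was left out (-2.97, adjusted p = 0.0395). The call in young mice was lost when any 1 of young controls 1 and 2 or young hets 1, 2 and 3 was left out (edgeR adjusted p from 0.0781 to 0.169, log2 difference from 2.01 to 2.58), and stood without young control 3 (2.77, adjusted p = 0.0255). The call between the control groups stood without each of the 6 libraries in turn (adjusted p from 0.00383 to 0.0159). When the mitochondrial rRNA share was added to the fit neither passed (1.76, adjusted p = 0.526, and 1.85, adjusted p = 0.402). In each comparison that share did not overlap between the groups, so the fit cannot tell its part from that of group. All 3 young hets and young control 3 carried Xist, and young controls 1 and 2 did not. The old controls held Xist at 0.458 to 1.77 CPM, and of the old hets only library 1 carried it. The part of Xist status in the Il21r levels was not tested, nor was that of the mitochondrial rRNA share beyond the fit that held it.

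Il2rg, the common gamma chain that pairs with Il21r, had 0 counts in all 3 young controls and also in young het 1. It had 10 and 93 counts in young hets 2 and 3, 278, 28 and 1 in the 3 old controls and 1, 19 and 7 in the old hets. Most of its counts in old control thus came from the library that held Ly6a, Cd3e and Cd8a, and its levels overlapped between the young groups (edgeR adjusted p = 0.261). IL-21 receptors are well known from lymphocytes, so markers of those cells are given beside Il21r. The 9 T and NK cell markers summed to 22.1 to 42.0 CPM in young control, 36.3 to 120.0 in young het, 36.1 to 146 in old het and 80.9 to 148 in old control, and Nkg7 gave most of this. In old control 1 this sum was 139 CPM, below the 148 of old control 2. Cd3e and Cd8a had 55 and 126 counts in old control 1 and 0 to 2 in the other 11 libraries, and Cd3g and Cd4 had 0 in old control 1 and 0 to 2 in the others. The sum of the 8 B lymphoid markers went the other way, at 159.8 to 241 CPM in young control and 95.1 to 130.1 in young het, and at 24.3 to 60.4 in the old libraries. Of the 5 tested B lymphoid markers, 2 were higher in young het and 3 lower. Markers of other cells moved in these comparisons too. The 8 basophil and mast cell markers summed to 303 to 678 CPM in young control and 809 to 1050.2 in young het, without overlap. Of the 7 tested, 4 were higher in young het and 3 lower. Hdc, the histamine-forming enzyme, rose from a mean of 162 CPM to 624 (log2 difference 1.94, edgeR adjusted p = 0.0385). Gfi1, a factor of neutrophil development, also rose in young het (2.85, adjusted p = 0.0477). The 14 neutrophil markers summed to 10858 to 14530 CPM in young control and 12704 to 19957 in young het, which overlapped. Of the 13 tested, 10 were higher in young het and 3 lower. Over all tested genes 0.424% passed in this comparison. In old control against young control 6.98% of all tested genes passed the same test. There 3 of 4 tested dendritic and 2 of 5 stem cell markers were higher and 3 of 5 B lymphoid markers lower. Of 13 neutrophil markers 2 were higher and 1 lower, as of 9 monocyte markers, and 1 of 7 basophil and mast cell markers was higher. Old control 1 gave the highest dendritic sum, 652 CPM, where old controls 2 and 3 gave 39.8 and 67.7 and young control ran from 14.4 to 32.9. Its sum of stem cell markers was also the highest, 1662 CPM, where old controls 2 and 3 gave 476 and 425. Young control ran from 297 to 513 CPM in that sum. The part of these cells in the Il21r levels was not tested. In such bulk samples fewer cells that express a gene and less RNA per cell cannot be told apart.

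**Figure D2:**
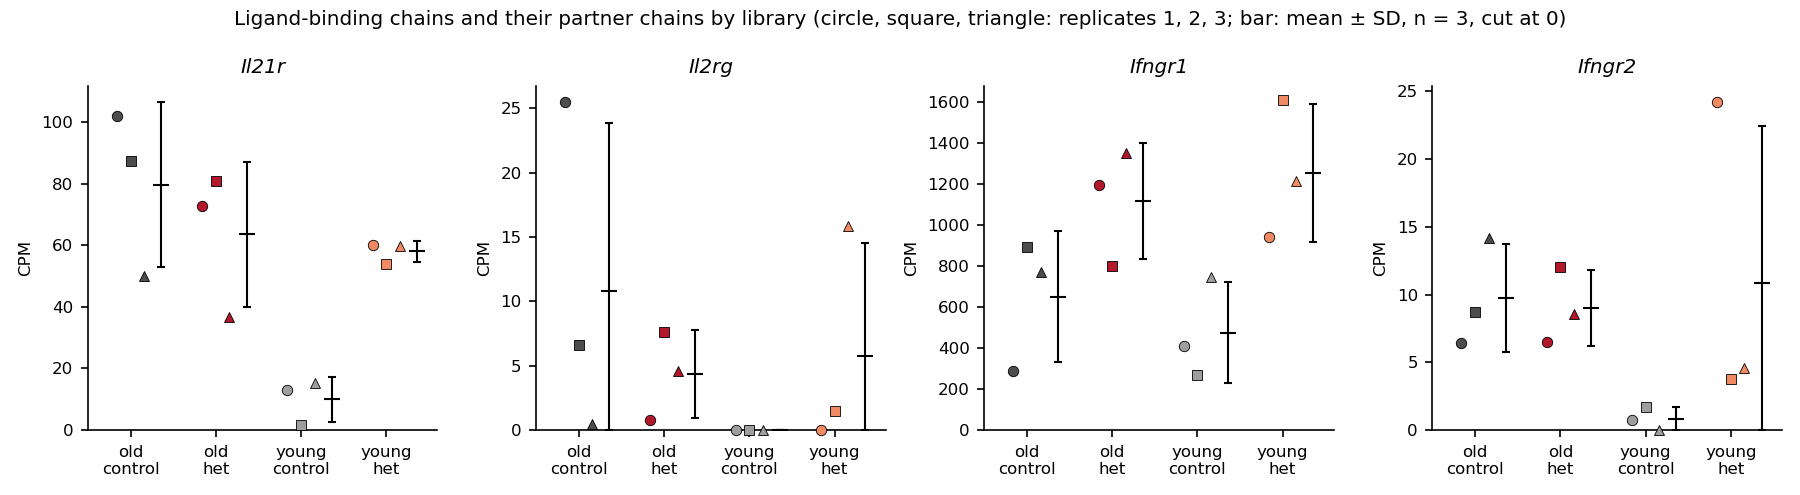
CPM (vertical axes, linear, from 0) of Il21r and Ifngr1 and of their partner chains Il2rg and Ifngr2 in each library, with mean and SD of 3 libraries. Il2rg had 0 counts and Ifngr2 0 or 1 count in every young control.

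Ifngr1, the ligand-binding chain for interferon gamma, was at 410.0, 270.3 and 747 CPM in young controls 1 to 3. The young hets stood above each of them, at 942, 1610.1 and 1214 CPM. The log2 difference was 1.40 (SE 0.42) and did not pass with all libraries (edgeR adjusted p = 0.139). It passed without young control 3 (1.88, adjusted p = 0.0453) and, by DESeq2, with all libraries (1.32, adjusted p = 0.0423). In old mice the hets were at 1196, 801 and 1354 CPM and the controls at 289, 892 and 773, which overlapped (log2 difference 0.78, SE 0.42, edgeR adjusted p = 0.999). Old control 1, the library with Ly6a, was the lowest of these 6, and without it the difference was 0.42. Ifngr1 made up 36.6% of the counts of the 10 receptors in old control 1, 49.4% and 36.6% in young controls 1 and 2, and 64.4% to 81.0% in the other 9 libraries.

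Ifngr2, the second chain of the interferon gamma receptor, had 1, 1 and 0 counts in the young controls and 72, 25 and 27 in the young hets. It was at 0.759, 1.70 and 0 CPM in the first group and at 24.2, 3.75 and 4.60 in the second, so the groups did not overlap. Of all tested genes 9.72% were higher in young het without overlap. The old controls held it at 6.41, 8.72 and 14.2 CPM and the old hets at 6.47, 12.02 and 8.54. The fitted log2 difference in young mice was 3.93 (SE 1.29) and did not pass (edgeR adjusted p = 0.168), nor did that between the control groups (3.78, SE 1.29, edgeR adjusted p = 0.0791). With 3 counts worth 2.28 to 5.10 CPM in the young controls, a level like that of young hets 2 and 3 is near the detection limit of young control 2.

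Csf2ra, the alpha chain that recognises GM-CSF, was at 3.8, 3.40 and 0 CPM in young controls 1 to 3, from 5, 2 and 0 counts. Young hets held 23.2, 23.3 and 18.4 CPM, from 69, 155 and 108 counts. Every young het thus stood above every young control. The log2 difference of 3.23 was the largest of the 9 receptors there and had the widest error (SE 0.96, edgeR adjusted p = 0.133). It was 4.10 without young control 1 and 2.56 without young control 3, and passed in neither. DESeq2 called it (3.19, adjusted p = 0.0263). Old controls stood at 22.6, 22.9 and 4.42 CPM, the old hets at 8.09, 22.0 and 7.88, overlapping each other. Both old groups lay above young control in every library, with a log2 difference of 2.87 for the controls (SE 0.96, edgeR adjusted p = 0.0733). From high to low, young het had a mean of 21.6 ± 2.78 CPM, old control 16.6 ± 10.6, old het 12.7 ± 8.12 and young control 2.399 ± 2.09 (SD, n = 3 each), with overlap between each of the upper 3 and its neighbour.

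Csf2rb, the beta chain shared by the GM-CSF, IL-3 and IL-5 receptors, did not follow its partner Csf2ra in the young hets, where it was at 53.1, 8.41 and 19.9 CPM. Young controls held 9.87, 13.6 and 24.5 CPM, so the young groups overlapped (log2 difference 0.73, SE 0.62, edgeR adjusted p = 0.639). Without young het 1 the difference was -0.20. Old controls held 69.0, 52.3 and 25.6 CPM, while old hets held 34.8, 68.9 and 46.0. Old control stood above young control in every library, by 1.61 on the log2 scale (SE 0.62, edgeR adjusted p = 0.120), without passing. Over all tested genes 19% were higher in old control without overlap.

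Il3ra, the alpha chain for IL-3, had its highest mean in young control, at 88.1, 32.3 and 115 CPM. It was at 57.8, 61.9 and 88.5 CPM in young het and at 54.2, 47.7 and 59.1 in old het. Old controls were the lowest, at 29.4, 40.8 and 45.1 CPM, and every old het lay above every old control. Of all tested genes 5.15% were higher in this way, and the log2 difference of 0.49 did not pass (SE 0.42, edgeR adjusted p = 0.999). Between old and young controls the difference was -1.06 (SE 0.42, edgeR adjusted p = 0.136), and it passed without young control 2 (-1.50, adjusted p = 0.0417), the shallowest library.

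Csf2rb2, a second mouse beta chain, which serves IL-3, had 17, 12 and 4 counts in old control and 4, 3 and 3 in old het. All 3 young controls and young hets 1 and 2 had 0 counts, and young het 3 had 2. Its mean was 2.05 ± 0.682 CPM in old control and 2.14 ± 1.03 in old het (SD, n = 3 each). With the young control group set at 3 counts in all (0.933 CPM) it was at least 2.20-fold higher in old control and at least 2.29-fold higher in old het. It failed the low-count filter and has no test. In GENCODE M21 the longest transcripts of both copies were 92.2% identical over 4619 aligned bases, and the last 500 bases of Csf2rb were 86.3% identical to its copy. How the authors' counting treated reads that match both is not given here, so the split between the copies is uncertain. Summing both copies before the test left the calls as they were.

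Because both chains come from the same library, their ratio needs no scaling between libraries. Csf2ra made up 30.4%, 73.5% and 48.0% of the counts of Csf2ra and Csf2rb in young hets 1 to 3, with exact 95% binomial intervals of 24.5% to 36.8%, 67.0% to 79.3% and 41.3% to 54.7%. Young controls gave 27.8%, 20% and 0% of 18, 10 and 32 counts, with intervals of 9.69% to 53.5%, 2.52% to 55.6% and 0% to 10.9%. The young groups did not overlap, nor did young and old het, which stood at 18.9%, 24.2% and 14.6%. Each of these 2 comparisons had a two-sided exact permutation p of 0.1, the smallest that 3 against 3 libraries can give (adjusted p = 0.4 over 12 tests of 3 pairs of chains). Old controls gave 24.7%, 30.4% and 14.7%. The 3 young hets differed from one another by more than their counting intervals.

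**Figure D3:**
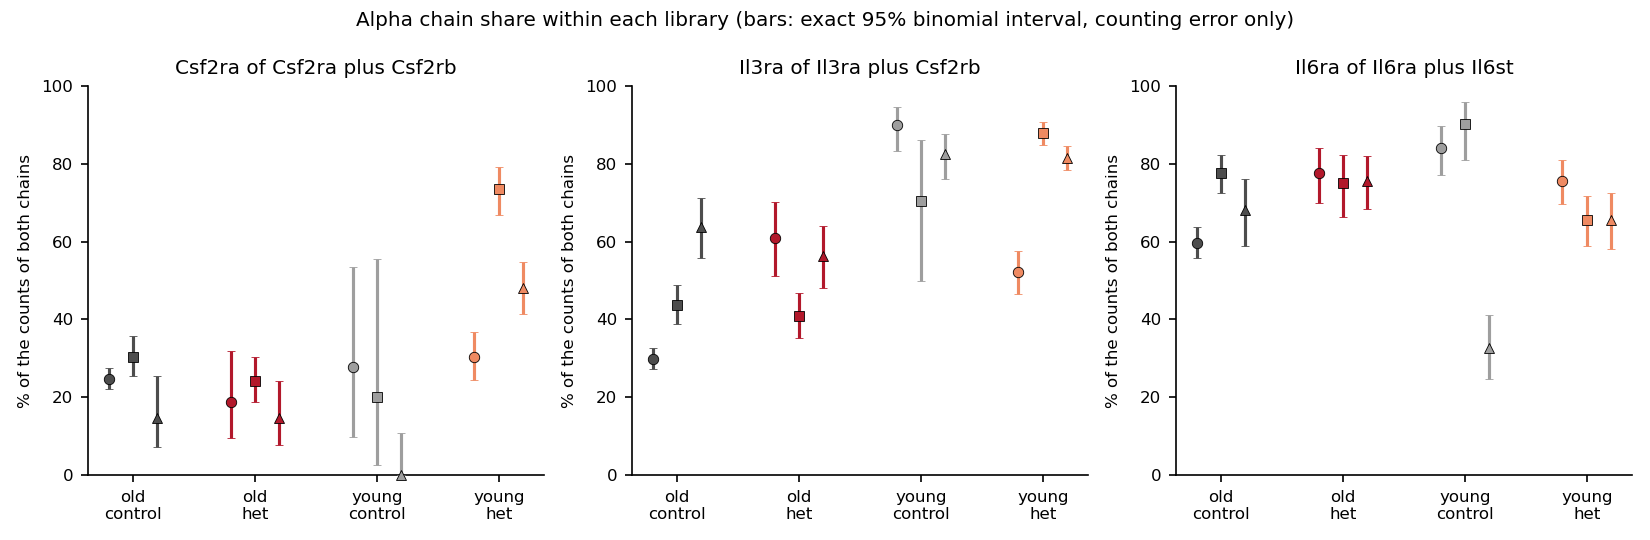
Share of the alpha chain among the counts of both chains (vertical axis, percent, 0 to 100) in each library for Csf2ra with Csf2rb, Il3ra with Csf2rb, and Il6ra with Il6st; bars are exact 95% binomial intervals, which cover counting error only. For Csf2ra the young hets run from 30.4% to 73.5% and the old libraries from 14.6% to 30.4%, and for Il6ra young control 3 stands at 32.6% and the other 11 libraries at 59.8% or above.

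For IL-3 the alpha chain share was 89.9%, 70.4% and 82.5% in the young controls and 29.9%, 43.8% and 63.8% in the old controls, which did not overlap (two-sided exact permutation p = 0.1, adjusted p = 0.4). The young hets were at 52.1%, 88.0% and 81.6% and the old hets at 60.9%, 40.9% and 56.3%. The GM-CSF and IL-3 pairs share Csf2rb, and for GM-CSF the 2 control groups overlapped.

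Il6ra, the chain that recognises IL-6, was at 92.6, 110.5 and 33.6 CPM in young controls 1 to 3 and at 60.5, 22.2 and 19.8 in the young hets. The groups overlapped through young control 3 (log2 difference -1.21, SE 0.52, edgeR adjusted p = 0.293). Old hets were at 92.2, 37.3 and 83.4 CPM and old controls at 33.3, 52.6 and 36.7 (0.79, SE 0.51, edgeR adjusted p = 0.999). Its het effect differed between the ages by 1.99 (SE 0.72, edgeR adjusted p = 0.238), with the opposite sign to the differences of Il21r and Csf2ra (-3.62, SE 1.24, edgeR adjusted p = 0.215). Within each of the 4 groups the Il6ra level and the mitochondrial rRNA share put the libraries in the same order. In the old hets libraries 1 and 3 were high in both and library 2 low in both. With that share as a covariate the difference in young mice was -0.18 and that between old and young controls changed sign, from -0.94 to 0.53, neither of which passed.

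Il6st, gp130, the signalling chain of the IL-6 family, was at 69.5 CPM in young control 3 and between 10.4 and 26.9 CPM in the other 11 libraries. Young control 3 set the young difference: it was -1.28 (SE 0.63, edgeR adjusted p = 0.368) with all libraries and -0.11 without that library. Il6ra was low and Il6st high in young control 3, so the alpha chain share was 32.6% there and 84.1% and 90.3% in young controls 1 and 2.

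Kit, the receptor for stem cell factor, is also the protein on which the cells were sorted, and its RNA ran from 96.5 to 291 CPM. It was found in every library, at 209, 183 and 179 CPM in old controls and 244, 101 and 236 in old hets. The young controls held 166, 291 and 113 CPM and the young hets 127, 165 and 96.5. All 4 groups overlapped with their neighbours in order of mean. The log2 difference was -0.54 in young (SE 0.38, edgeR adjusted p = 0.566) and 0.02 in old mice (SE 0.38, edgeR adjusted p = 0.999), with approximate 95% intervals from -1.29 to 0.21 and from -0.72 to 0.77. These intervals still allow differences of more than 1.5-fold.

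Csf3r, the receptor for G-CSF, which drives neutrophil production, was at 26.5, 32.1 and 38.5 CPM in young hets and at 15.4, 12.4 and 11.8 in old hets. Every old het lay below every young het, as did 6.95% of all tested genes, and the log2 difference of -1.30 did not pass (SE 0.64, edgeR adjusted p = 0.805). Old controls were at 10.7, 19.1 and 8.84 CPM. Young controls were spread over 30.4, 3.40 and 41.3 CPM, and young control 2, at 2 counts, made their SD of 19.5 CPM nearly as large as their mean of 25.0. The het difference was 0.33 in young (SE 0.62, edgeR adjusted p = 0.870) and 0.03 in old mice (SE 0.64, edgeR adjusted p = 0.999).

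**Figure D4:**
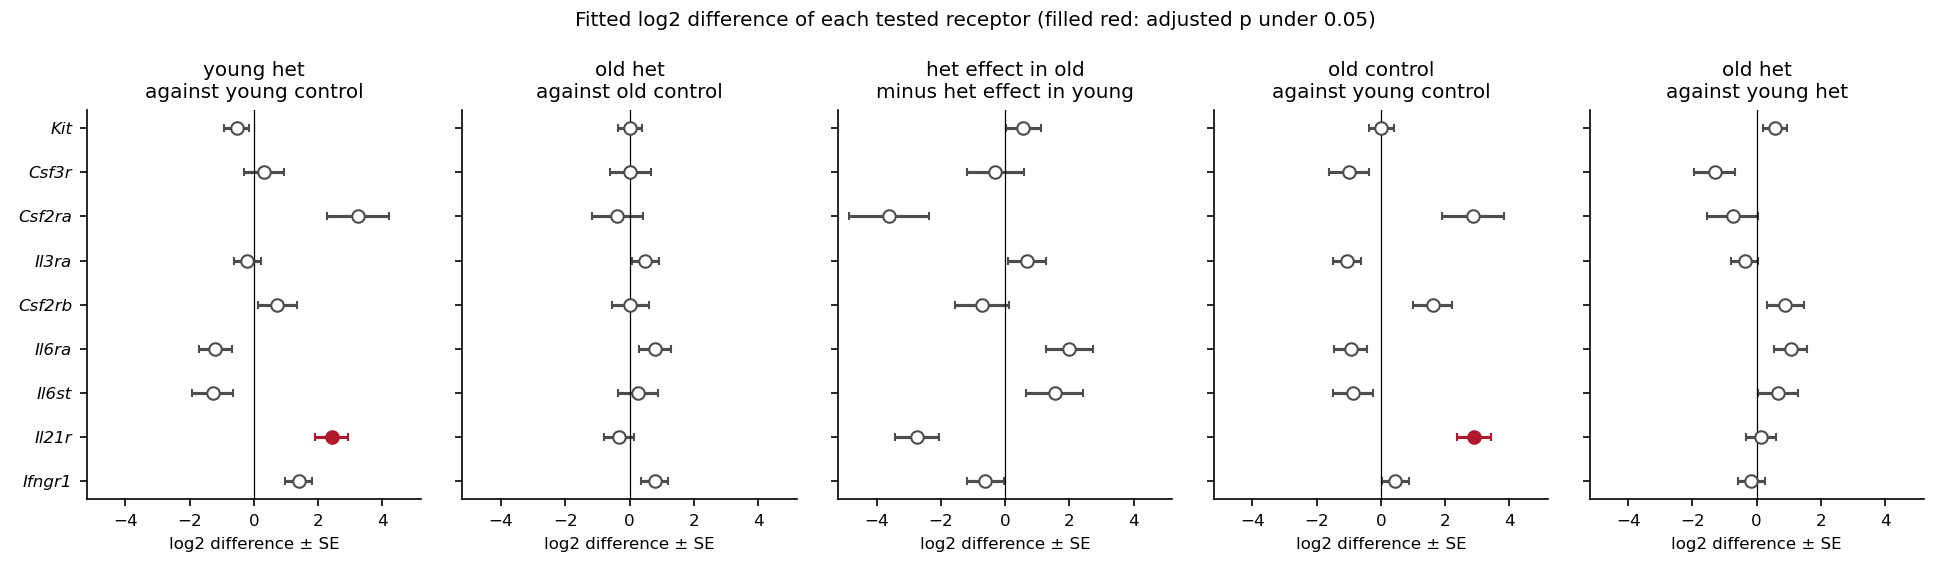
Fitted log2 difference (horizontal axes) with its approximate SE for the 9 tested receptors in the 5 comparisons; filled red points had an edgeR adjusted p under 0.05. Il21r is the single red point in young het against young control (2.42) and in old against young control (2.88), and the other 3 panels have none.

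The genes around these receptors were read from 6 lists. Among ligands, 8 of 15 had 0 counts in every library, among them Kitl, Csf2, Csf3, Il3, Il21 and Ifng, and none of the 2 that could be tested passed in any of the 5 comparisons. Of 32 other cytokine receptors 25 were tested and none passed in any of the 5 comparisons. In young het against young control 12 of these were higher and 13 lower, with a median log2 difference of -0.09 beside 0.08 over all genes. Of the 25, 1 was higher without overlap, Ifngr2, as were 9.72% of all tested genes. Il17ra, a receptor for IL-17, was at 271 ± 83.8 CPM in the young hets, above the 139 ± 50.2 of the young controls (SD, n = 3 each, log2 difference 0.96, edgeR adjusted p = 0.269).

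All 11 JAK and STAT genes were tested and 1 passed, in old control against young control, where 6.98% of all tested genes did. Stat6, the factor downstream of IL-4 and IL-13, was lower in old control than in young control, at 26.7 ± 9.97 against 83.8 ± 25.5 CPM (SD, n = 3 each, log2 difference -1.63, edgeR adjusted p = 0.0348). Stat4, which acts downstream of IL-12, had 2 counts over the 3 young controls and 102 over the young hets, with overlapping groups (edgeR adjusted p = 0.301). Jak1, which binds gp130 and Ifngr1, was at 229.8 ± 61.7 CPM in the young controls, with 210.1 ± 70.3 in the young hets (SD, n = 3 each).

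Of 28 adaptors and kinases, all tested, 1 passed in the same comparison, again beside 6.98% of all genes. Grb2, the adaptor that links receptors to the RAS pathway, was at 281 ± 51.1 CPM in old control and 141 ± 21.2 in young control (SD, n = 3 each, log2 difference 0.99, edgeR adjusted p = 0.0445). In young mice 20 of the 28 were higher in het and 8 lower, with a median of 0.26, and none passed. Nras, Grb2 and Sos2 (3 of the 28, where 9.72% of all genes did so) were higher without overlap, and Map2k2, a kinase below RAS, lower without overlap, with edgeR adjusted p between 0.140 and 0.215. The share of all genes that were lower without overlap is not given here.

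Among inhibitors of receptor signalling 23 of 26 were tested, and in old control against young control 2 were higher and 1 lower, beside 6.98% of all genes in either direction. Ptpn1, a tyrosine phosphatase that acts on JAK2, was higher in old control than in young control, at 184 ± 42.7 against 56.3 ± 10.6 CPM (SD, n = 3 each, log2 difference 1.71, edgeR adjusted p = 0.00918). Pias1, an inhibitor of STAT signalling, was lower, at 65.3 ± 5.98 against 258 ± 114 CPM (SD, n = 3 each, log2 difference -1.98, edgeR adjusted p = 0.00992). In young het against young control none of the 23 passed. Without overlap 4 of them were higher, as were 9.72% of all tested genes, and 2 were lower. The share of all genes lower in this way is not given here. Among these, Ptpn1 and Pias1 stood at 1.17 and -1.85 (edgeR adjusted p = 0.156 and 0.0559), each without overlap. These 2 comparisons share the young controls. Neither the 2 old groups nor the het groups differed in them past the threshold.

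Of 24 cytokine target genes 21 were tested, and 1 rose in young het against young control, where 0.424% of all tested genes passed. That gene, Cebpd, a C/EBP factor induced through STAT3, had 0 counts in every young control and stood at 25.0 ± 5.81 CPM in young het (SD, n = 3), at least 26.8-fold higher with the 3 young controls set at 3 counts in all (edgeR adjusted p = 0.0118). No gene was called higher in young het with the mitochondrial rRNA covariate, or without any 1 of young control 2, young het 2 and young het 3. In old control against young control Cebpd (at least 26.4-fold) and Gbp2, an interferon-induced GTPase (at least 18.02-fold), were higher and the early response factor Fos was lower (log2 difference -1.73, edgeR adjusted p = 0.0462). Over all tested genes 6.98% passed there, and 0 did with the covariate. Fos was the single gene of all 10604 that passed in old het against young het, at 3.73 ± 1.21 against 57.9 ± 19.3 CPM (SD, n = 3 each, log2 difference -3.90, edgeR adjusted p = 0.0176). No gene passed in that comparison when any 1 of old hets 2 and 3 or young hets 2 and 3 was left out. Socs3, the feedback inhibitor of gp130 and G-CSF receptor signalling, was counted 51 times in old control 1 and 0 or 1 time in the other libraries.

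The genes whose levels over the 12 libraries were most like those of Il21r were Laptm5, Leprotl1 and Sertad2 (Pearson's r of log2 CPM 0.95, 0.94 and 0.93). For Csf2ra they were Plod1, Pcsk7 and Nod1 (0.95, 0.94 and 0.93), and for Ifngr1 Gspt2, Yipf1 and Sae1 (0.93, 0.93 and 0.92). Among the receptors themselves the most alike pair was Csf3r and Il3ra (0.82), followed by Kit and Il6ra (0.66) and by Csf2ra and Il21r (0.65). The points of these correlations share depth and group, and they are descriptions over 12 libraries.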

How the data were processed

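RNA of sorted progenitors from 12 mouse samples was sequenced with a Lexogen 3' mRNA-seq kit, per the labels' protocols. The authors deposited 1 table of raw counts for 33924 gene symbols, not normalized. STAR 2.4, HTSeq 0.6.1, DESeq2 and build mm9 are named, per the submitters' processing notes, without role or order. For the annotation, the strand setting and reads shared by near-identical genes nothing is given in the sources used. Antisense genes are annotated over part of Il3ra and Il6ra, and their reads could not be told apart.

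Total counts ran from 645460 to 9645502. Genes passed edgeR's filterByExpr (minimum count 10, minimum total 15), leaving 10604. The test was edgeR's quasi-likelihood F test (version 4.0.16, R 4.3.3) on TMM-scaled libraries, 1 fit over the 4 groups without covariates, and Benjamini-Hochberg adjustment over all tested genes at 0.05. The SE is the absolute log2 change over the square root of F and is approximate, and intervals are 1.96 SE. CPM of all receptors use the TMM-scaled totals of the tested genes. Shares have exact Clopper-Pearson intervals; intervals and floors cover counting error only, since molecular identifiers are not given.

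Alternatives were DESeq2 1.42.0, limma-voom (limma 3.58.1), fits of only the compared groups, other filters and scalings, no mitochondrial or small RNA genes, the mitochondrial rRNA share as a covariate, Csf2rb and Csf2rb2 summed, and libraries left out. The steps were tested on simulated data. The receptors, lists and settings were chosen with earlier results of these data known. Named genes were the 10 receptors, for each tested receptor the 3 tested genes most like it over the libraries, list members past the threshold, and otherwise up to 4 a list by p in young mice; not all are printed, and 1 inhibitor past the threshold is not reported here. Il2rg, Ifngr2, Stat4, Il17ra, Nras, Grb2, Sos2 and Map2k2 came by that rule. Wt1, Ly6a, Cd3e, Cd3g, Cd4, Nkg7, Xist, Ddx3y, Cd8a, Hdc, Gfi1, Jak1 and Socs3 were named outside it, after their values were seen.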

Additional observations from a re-analysis of the deposited data

Results flagged for a closer look

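The het effect on Cebpd differed between the ages by a test of the difference itself (edgeR adjusted p = 0.0228). With the young controls, all at 0 counts, set at the floor, the log2 het effect in old minus that in young mice was -5.53. This value sets a fitted effect in old mice against a bound in young mice and is not that test's estimate. Cebpd was the 1 gene called lower in the difference. No gene was called lower with limma-voom or with the mitochondrial rRNA covariate. The same held without any 1 of old control 3, old hets 1 and 3, young controls 1 and 2 or young hets 2 and 3. None of the 9 tested receptors passed the edgeR test of the difference.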

How the results depend on the processing

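In young het against young control, where edgeR called 1 receptor, DESeq2 called 3 (Csf2ra, Ifngr1 and Il21r), no low-count filter gave 2, leaving out both old control 1 and young control 3 gave 2, and limma-voom, dropping mitochondrial and small RNA genes, the mitochondrial rRNA covariate and fitting the compared groups alone each gave 0. The count over all genes moved with these settings: 45 were called by edgeR, 355 by DESeq2, 258 without filter, 241 without both libraries, 23 by limma-voom, 13 with the compared groups alone, 8 without mitochondrial and small RNA genes and 1 with the covariate. In old against young control (1 called), DESeq2 and scaling by library totals alone gave 2, and limma-voom and the covariate 0. Over all genes these were 740 by edgeR, 1295 by DESeq2, 1006 with library totals, 517 by limma-voom and 0 with the covariate. For the difference between the het effects (0 called), DESeq2 and no filter gave 1, Il21r. Leaving out 1 library at a time gave 0 to 2 receptors in young het against young control, 1 to 2 in old against young control, 0 to 1 for the difference and 0 to 0 in the other 2 comparisons.

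The Il21r difference in young mice kept its direction, at 2.57 with limma-voom (adjusted p = 0.266), 2.397 without mitochondrial and small RNA genes (0.0573), 1.76 with the covariate (0.526) and 2.42 with the compared groups alone (0.143). Between the controls it was 3.04 with limma-voom (0.0531) and 1.85 with the covariate (0.402). The covariate did not overlap between the groups in either comparison and cannot be told apart from group there.

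Log2 differences that changed sign were of receptors that had not passed. Kit between old and young control was -0.0548 with DESeq2, -0.0542 with its size factors, -0.0608 without mitochondrial and small RNA genes, -0.32 without both libraries and -0.0423 with the compared groups alone. In old het against old control, Kit was -0.13 with limma-voom, -0.12 with library totals and -0.60 with the covariate, Il6st was -0.00245 with limma-voom, Csf2rb and Csf3r were -0.0803 and -0.0833 with library totals, Csf3r was -0.10 without both libraries, and Il21r was 0.18 with the covariate. With the covariate, Kit and Csf3r were 0.44 and -0.34 in young mice and -1.04 and 0.97 in the difference, and Il6ra was 0.53 between the controls. Without both libraries Il3ra was 0.17 in young mice and Il6st 0.12 between the controls. The cause of these changes was not tested.

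Leaving out 1 library gave, in young mice, -0.20 to 1.23 for Csf2rb, -0.17 to 0.84 for Csf3r and -0.57 to 0.17 for Il3ra. In old het against old control it gave -0.29 to 0.36 for Csf2rb, -0.18 to 0.42 for Csf3r and -0.14 to 0.33 for Kit. Between the controls it gave -1.34 to 0.23 for Il6st and -0.30 to 0.35 for Kit, between the hets -0.36 to 0.0562 for Ifngr1 and -0.0829 to 0.38 for Il21r, and for the difference -1.17 to 0.25 for Csf2rb and -0.78 to 0.24 for Csf3r.

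No paired analysis was possible because the labels give the groups no shared replicate numbers. Young control 2 and the low counts of Csf2ra, Csf2rb2, Ifngr2 and Il2rg limit what can be detected.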
